A study of Mus musculus with 2 samples.

Results

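The transcripts described here are 63 mouse cDNA clones of the RIKEN collection whose names start with B430, the code of a library made from neonate adipose tissue. The tissue of this and other library codes is general knowledge of the RIKEN collection and is stated in no file used here. They are all the non-control probes of the array whose probe name starts with that code, out of 97373 probes that had usable spots on each array, 15618 of them RIKEN clones. RNA from mammary glands of female mice was hybridised to 2 one-colour Agilent arrays. One array held a control gland, whose genotype is given as miR-34a fl/fl, with loxP sites around the miRNA gene. The other held a knockout gland (miR-34a -/-), from a cross of such mice with a mouse whose Cre recombinase is described as mammary gland specific. The control therefore carries the floxed alleles too, and is not described as carrying Cre. The promoter that drives Cre, the cells in which it acts, the age of the mice and whether animals were pooled are not given in the sources used here. With 1 array per genotype there is no replicate, so no test was made and every difference describes these 2 glands.

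White fat is made of adipocytes that store triglyceride, together with vessels, fibroblasts, progenitors and immune cells. In the mammary gland the epithelial ducts grow through a pad of such fat, so RNA of the gland is a mixture whose fat share can vary from piece to piece. The RIKEN libraries were made by cloning full-length cDNA from many tissues, and the start of a clone's name tells the library. A clone's library tells where its RNA was found, not that other tissues lack it. Many such clones are long non-coding RNAs or stretches of unspliced or untranslated RNA from coding loci. In a bulk sample fewer cells of a type and less RNA per cell cannot be told apart.

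The mature miRNA miR-34a-5p, of the gene deleted in the knockout, is shown with relatives that have genes of their own. All share the seed (bases 2 to 8, in capitals) through which a miRNA pairs with its targets. The same gene also gives miR-34a-3p, which has a different seed. Levels of miRNAs were not examined here. The sequences are RefSeq's, build GRCm38.p6, read 5′ to 3′.
mmu-miR-34a-5p: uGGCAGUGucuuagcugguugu
mmu-miR-34b-5p: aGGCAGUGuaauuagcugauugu
mmu-miR-449a-5p: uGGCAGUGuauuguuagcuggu
mmu-miR-449c-5p: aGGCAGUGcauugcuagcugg
No probe or clone sequence was used here, so the clones were not searched for this seed.

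Each array had 180880 spots, 175906 of them not controls. Of these, 77.3% in the control and 75.4% in the knockout passed the scanner software's flag for being well above background. Every B430 clone had 1 spot per array, with no outlier mark and no saturation. RIKEN clones with 2 spots show what printing and scanning add: a pair had a median SD of 0.10 on the log2 scale on either array, and pairs that differed by 2-fold or more made up 0.295% in the control and 0.613% in the knockout. Feature Extraction, the scanner software, also estimates an error for each spot. For the difference between the arrays this error had a median of 0.21 log2 units over the measured B430 clones and reached 0.41. Neither error covers differences between animals or between hybridisations.

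Nearly all clones of the fat library were seen in these glands. On the control array 59 of the 63 B430 clones were well above background (93.7%, exact 95% interval 84.5% to 98.2%). On the knockout array 57 were (90.5%, interval 80.4% to 96.4%). The intervals cover counting error over clones only. Among the other 15555 RIKEN clones the shares were 77.2% and 74.8%. Of 77 RIKEN libraries with at least 50 clones on the array, B430 had the third highest share on the control array and the second highest on the knockout array. The other libraries ran from 52.4% to 94.7% in the control and from 52.4% to 92.5% in the knockout. Clones of neonatal skin libraries, another tissue of newborn mice that includes fat under the dermis, were well above background in 86.7% and 82.8%. Clones of an aorta and vein library were so in 86.5% and 83.5%. Whether the tissue of these libraries was taken with fat is not stated in the sources used here.

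B430 probes were also brighter than most. Their median level was -1.34 in the control and -1.35 in the knockout, as log2 signal minus the array's own 75th percentile. The other RIKEN clones had medians of -2.09 and -2.11. Each B430 median stood at percentile 62.5 of all RIKEN clones on its array. Brightness depends on the probe as well as on the RNA, so these levels do not rank amounts of transcript. Above the 75th percentile lay 15 B430 clones in the control gland and 13 in the knockout gland.

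The brightest B430 clone over both arrays was B430001L01. Its processed signal was 4152 in the control and 4390 in the knockout, at percentile 99.5 of RIKEN clones on each array. After scaling that is 3.65 against 4.18, a log2 difference of 0.53. The second was B430109A22, with signals of 2143 and 3351, scaled to 2.70 and 3.79. It was 2.13-fold higher in the knockout and so was bright and different at once. B430315A04 followed, at 2.43 in the control and 2.30 in the knockout, a difference of -0.12 that lay within the error of its spots (0.20). B430212B02 was at 1.53 and 2.01, and B430306C15 at 1.26 and 1.86. B430214C11 went the other way, at 2.02 in the control and 1.19 in the knockout. Of the 6 brightest clones only B430109A22 was 2-fold apart. None of these 6 matched a gene of the RefSeq table used for names.

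**Figure D1:**
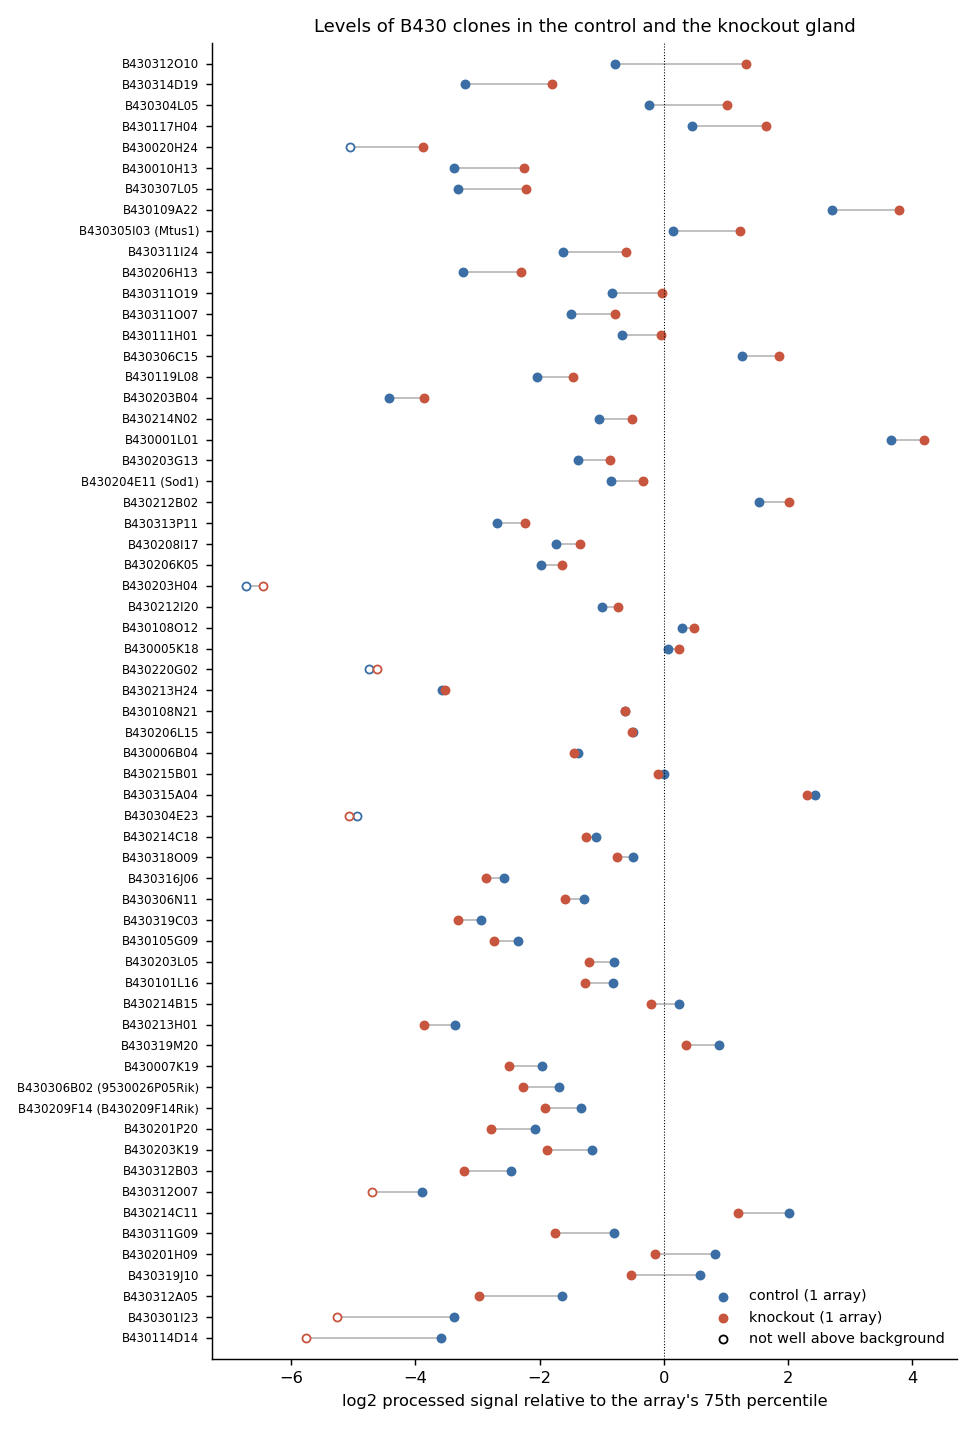
The plot gives the log2 processed signal of the B430 clones, all but 1 of the 63, minus the array's 75th percentile (horizontal axis), for the control gland (blue) and the knockout gland (red), 1 array each, ordered by the difference. Open circles are not well above background. The top of the plot holds the clones higher in the knockout, led by B430312O10, from -0.78 to 1.32.

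The next question was whether B430 clones differed between the glands, and whether they did so as a group. Differences up and down nearly balanced. Over the 56 clones measured on both arrays the median of knockout minus control was 0.12 on the log2 scale. Other RIKEN clones, weighted to the same distribution of signal over 10 bins of mean level, had a median of 0.04. The offset between these medians was 0.08, and it was not tested. Above 0 lay 29 of the 56 B430 clones (51.8%), against a background of 53.5% of the other RIKEN clones and 53.1% after weighting.

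The size of the differences was another matter. Of the 56 clones 10 were at least 2-fold higher in the knockout (17.9%, exact 95% interval 8.91% to 30.4%) and 2 at least 2-fold lower (3.57%, interval 0.435% to 12.3%). Both intervals cover counting error over clones of the same 2 arrays only, not differences between glands. With spike-ins set equal the balance turned, with 3 higher (5.36%, against 1.77% of clones of like signal) and 8 lower (14.3%, against 11.3%). The counts were 7 higher (12.5%, against 3.29%) and 3 lower (5.36%, against 5.7%) with a loess curve. They were 3 higher (5.36%, against 1.47%) and 0 lower (against 1.55%) with normexp background correction. Among the other 11291 RIKEN clones measured on both arrays the background was 4.15% for 2-fold or more higher and 4.66% for 2-fold or more lower. Weighted to the signal of the B430 clones, these shares were 4.10% and 4.82%. Against RIKEN clones with 1 spot, as all B430 clones have, the backgrounds were 4.38% higher and 4.83% lower, and over all non-control probes 4.45% and 4.54%. The interquartile range of the B430 differences ran from -0.45 to 0.61, and that of the other RIKEN clones from -0.31 to 0.37. Differences at or beyond 0.5 short of 2-fold were as frequent up as down, with 11 clones each way, while 22 clones lay between -0.5 and 0.5.

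More of the B430 differences than of the others were larger than the error of their spots. In 35 of 56 clones (62.5%) the difference exceeded 2 times the error that Feature Extraction gives, 21 with higher signal in the knockout and 14 with lower. Of 7783 other RIKEN clones with 1 spot 38.3% did, 20.2% higher and 18.1% lower. These others were not weighted to the signal of the B430 clones. Their median level was -1.31 on each array, against -1.07 and -1.03 for the measured B430 clones. In B430 clones the error ran from 0.20 in bright clones to 0.41 in the dimmest measured clone. The part that brightness has in these shares was not tested. In each of the 12 B430 clones at least 2-fold apart the difference was at least 4.2 times this error.

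**Figure D2:**
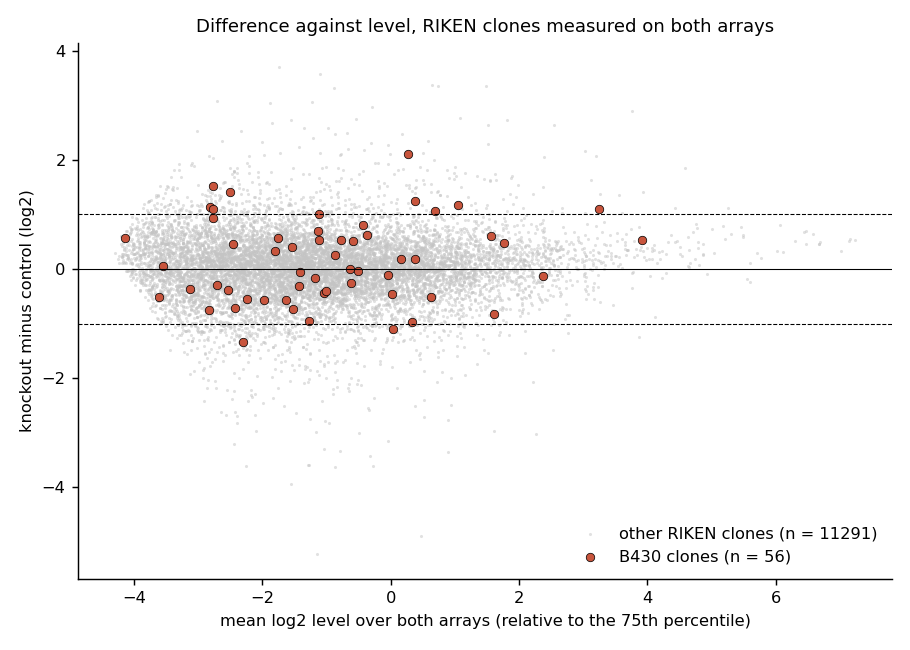
Each point is a RIKEN clone measured on both arrays, with its mean log2 level (horizontal axis) and its log2 difference, knockout minus control (vertical axis). B430 clones are red (n = 56), other RIKEN clones grey (n = 11291), and dashed lines mark 2-fold. The 10 B430 clones above the upper line are spread over dim and bright levels.

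The clones at least 2-fold higher lay among dim and bright probes, with only 1 at middle levels. RIKEN clones were split by mean level into 3 classes of like size. In the dimmest class 4 of 16 B430 clones were at least 2-fold higher, against 5.12% of the others. In the middle class it was 1 of 21 against 3.70%, and in the brightest class 5 of 19 against 3.64%. Above 0 lay 12 of 19 B430 clones in the brightest class, 9 of 21 in the middle class and 8 of 16 in the dimmest. Of all other RIKEN clones 53.5% did. The B430 median of the brightest class was 0.48, while other RIKEN clones of that class had a median of 0.06. In the dimmest and the middle class the B430 medians were -0.12 and -0.04, below those of the other RIKEN clones, 0.07 and 0.01. Over the 56 clones the level in the control and in the knockout had a Spearman correlation of 0.91, as a description across clones that share their arrays.

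**Figure D3:**
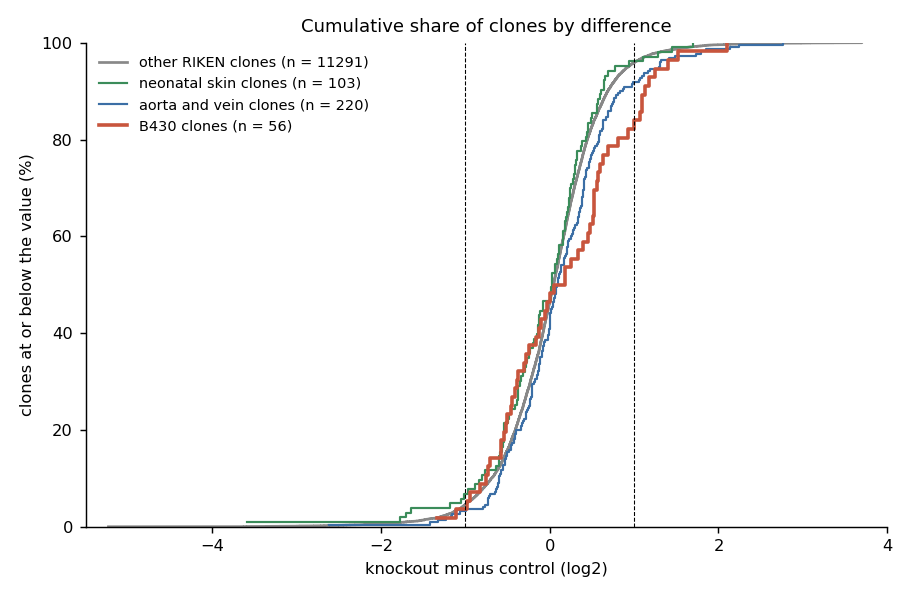
The curves give the share of clones (vertical axis, %) at or below each log2 difference, knockout minus control (horizontal axis), for B430 clones (red, n = 56), other RIKEN clones (grey, n = 11291), neonatal skin clones (green, n = 103) and aorta and vein clones (blue, n = 220). The red curve has quartiles of -0.45 and 0.61, the farthest apart of the 4 sets drawn, and lies below the others at 1, the 2-fold line on the right.

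The 10 higher clones were led by B430312O10. Its processed signal was 192 in the control and 605 in the knockout, or -0.78 and 1.32 after scaling. The difference of 2.10 is 4.29-fold, and B430312O10 was the single B430 clone past 4-fold. It matched no gene of the RefSeq table. B430314D19 was at -3.20 in the control and -1.80 in the knockout (2.65-fold), also with no match. B430304L05 was at -0.24 and 1.01 (2.37-fold), and B430117H04 at 0.46 and 1.64 (2.26-fold). B430010H13 was at -3.38 and -2.25 (2.19-fold), and B430307L05 at -3.31 and -2.22 (2.14-fold). B430311I24 lay just past the limit, at -1.62 and -0.61 (2.01-fold), and B430206H13, at -3.23 and -2.30 (1.90-fold), just short of it. B430109A22, described above, and B430305I03 were also among the higher clones.

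Apart from B430312O10 these calls depended on the setting. Several settings, such as keeping outlier spots or changing the filter, could hardly change the difference of a clone with 1 spot. The tallies below are therefore not counts of separate repeats. B430311I24 was 2-fold higher in 5 of 10 settings, with a lowest log2 difference of 0.64. B430307L05 and B430010H13 were so in 7 of 10, with lowest differences of 0.69 and 0.58 under normexp. B430109A22 and B430117H04 were so in 8 of 11, with lowest differences of 0.73 and 0.82 when spike-ins were set equal. B430304L05 and B430305I03 were so in 9 of 11 (lowest 0.88 and 0.71, with spike-ins), and B430314D19 in 9 of 10 (lowest 0.80, under normexp). In these clones the direction was the same in every setting that gave a value.

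B430305I03, from a protein-coding locus, is listed in the RefSeq table as a synonym of Mtus1, which encodes a microtubule-associated protein that binds the angiotensin AT2 receptor. It was at 0.15 in the control and 1.22 in the knockout, with signals of 366 and 564, a 2.10-fold difference. No other probe could be matched to Mtus1. A clone with a name of its own need not represent the main mRNA of the gene, so these values describe the clone.

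A further 3 clones with a gene stayed within 2-fold. B430204E11 is listed under Sod1, the copper and zinc superoxide dismutase of the cytosol, and was at -0.85 and -0.33, 1.43-fold higher in the knockout. B430209F14, the clone of the lncRNA gene B430209F14Rik beside the tubulin gene Tuba1a, was at -1.34 in the control and -1.92 in the knockout, 1.49-fold lower. A second probe for B430209F14Rik was not well above background on either array. B430306B02 is listed under 9530026P05Rik, a lncRNA gene that overlaps Adamts9, the gene of a secreted metalloprotease of the extracellular matrix. It was at -1.69 and -2.26, 1.49-fold lower. The clone 9530026P05 of the same gene was 0.58 higher on the log2 scale, at -0.30 and 0.28, so the 2 probes of this gene differed in opposite directions by the same amount.

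The 2 clones at least 2-fold lower were B430312A05 and B430319J10. B430312A05 was at -1.64 in the control and -2.98 in the knockout, with processed signals of 106 and 30.6 (2.53-fold). B430319J10 was at 0.58 and -0.53, with signals of 493 and 168 (2.15-fold). Neither matched a gene. B430201H09, at 0.82 and -0.15, and B430311G09, at -0.80 and -1.75, lay just short of 2-fold. Under normexp the difference of B430312A05 was -0.57 and that of B430319J10 was -0.94, so that neither was 2-fold lower there. Normexp was run with an offset of 50 added to each signal, which by itself shrinks the differences of dim clones.

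Clones seen on 1 array only were few. B430114D14, B430301I23 and B430312O07 passed the flag in the control gland alone (4.76% of 63, against 4.61% of the other RIKEN clones). Their signals in the control were 27.4, 31.6 and 22.3, close to the limit of detection. In the knockout they were 1.52-fold, 1.75-fold and 1.24-fold lower, by a bound that uses the lowest level well above background on that array. The bounds leave out the error of the spots. In log2 units they were -0.61, -0.81 and -0.31, with errors of the difference of 0.89, 0.73 and 0.5. B430020H24 was well above background in the knockout only (1.59%, against 2.23%). It was 1.56-fold higher by a like bound of 0.65 log2 units, with an error of 0.53. None of these bounds reached 2-fold. B430203H04, B430220G02 and B430304E23 were not well above background on either array.

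The B430 clones were then set against other RIKEN libraries. Of 68 libraries with at least 50 clones measured on both arrays, B430 had the highest share at least 2-fold higher in the knockout, 17.9%. The next library had 13.2% (7 of 53), and the other libraries had a median of 3.93%. By the share at least 2-fold lower B430 ranked 47 of 68. By its median difference it ranked 10, in a range of the others from -0.10 to 0.23. Its interquartile range of 1.06 log2 units was the widest of the 68, where the others had a median of 0.67 and reached 0.99. B430 is among the smaller of these libraries, whose shares vary more than those of large ones, and its rank was not tested. By the share higher B430 ranked 3 with spike-ins set equal and with normexp, 2 with no background correction and 4 at 4-fold.

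**Figure D4:**
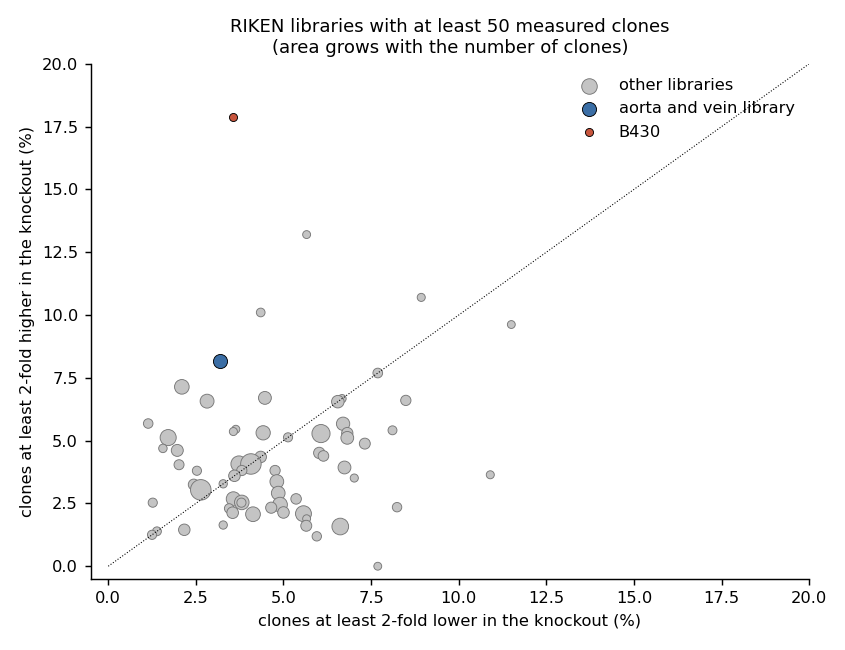
Each circle is 1 of the 68 RIKEN libraries with at least 50 measured clones, placed by the percent of its clones at least 2-fold lower (horizontal axis) and at least 2-fold higher (vertical axis) in the knockout. Circle area grows with the number of clones, and the dotted line marks equal shares. B430 (red) lies at 3.57% lower and 17.9% higher, and the aorta and vein library (blue) at 3.18% and 8.18%.

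The same counts were made for the aorta and vein and the neonatal skin clones, beside 4.45% higher and 4.54% lower over all non-control probes. Of 220 aorta and vein clones 18 were at least 2-fold higher (8.18%, interval 4.92% to 12.6%) and 7 lower (3.18%). Of 103 neonatal skin clones 4 were higher (3.88%, interval 1.07% to 9.65%) and 7 lower (6.80%). The medians were 0.09 and 0.02, so that the B430 median lay 0.03 and 0.09 above them. The intervals cover counting error over clones of the same 2 arrays only, not differences between glands. The difference between the libraries was not tested.

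A share of fat that differed between the glands could not be read from adipocyte genes. Of 34 white adipocyte markers 2 had a probe that could be matched, and 1 of these was measured. Pde3b, the phosphodiesterase through which insulin restrains fat breakdown, was at -2.27 in the control and 0.32 in the knockout through the clone 9830102A01, 6.03-fold higher. This clone need not represent the main mRNA of Pde3b, and 1 marker does not give a share of fat. The probe for Acly, an enzyme of fatty acid synthesis, was not well above background on either array. None of 12 brown adipocyte, 12 fat progenitor and fibroblast, 6 keratinocyte, 6 skeletal muscle, 6 immune and 4 vessel markers had a matched probe. Of 13 mammary epithelial markers 1 did, Esr1, and it was not well above background on either array, so the labelled tissue was not checked on its own markers. No B430 clone with a gene lay at or beside a gene of these lists. The part that fat share, other cells or RNA quality has in the B430 differences was not tested.

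The number of higher B430 clones, and its excess over clones of like signal, depended on how the arrays were scaled and on background correction. The excess was 13.8 percentage points as reported above, 9.21 with a loess curve, 6.76 with no background correction, 3.89 with normexp and 3.59 with spike-ins set equal. With 9 spike-in probes set equal, which moved the median of all probes by -0.36, 3 B430 clones were at least 2-fold higher (5.36%, against 1.77% of like signal) and 8 lower (14.3%, against 11.3%). Their median was then -0.24 and that of like clones -0.32. With normexp background correction 3 were higher (5.36%, against 1.47%), where the added offset of 50 shrinks differences of dim clones in both sets. With no background correction 5 were (8.93%, against 2.16%), and with a loess curve 7 (12.5%, against 3.29%). Of the named clones at least 2-fold apart B430312O10 was past 2-fold in all 11 settings that gave a value, with a lowest difference of 1.74. The others lost 2-fold in at least 1 setting. Several of the 11 settings could hardly change a clone's difference, so they are not separate repeats.

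**Figure D5:**
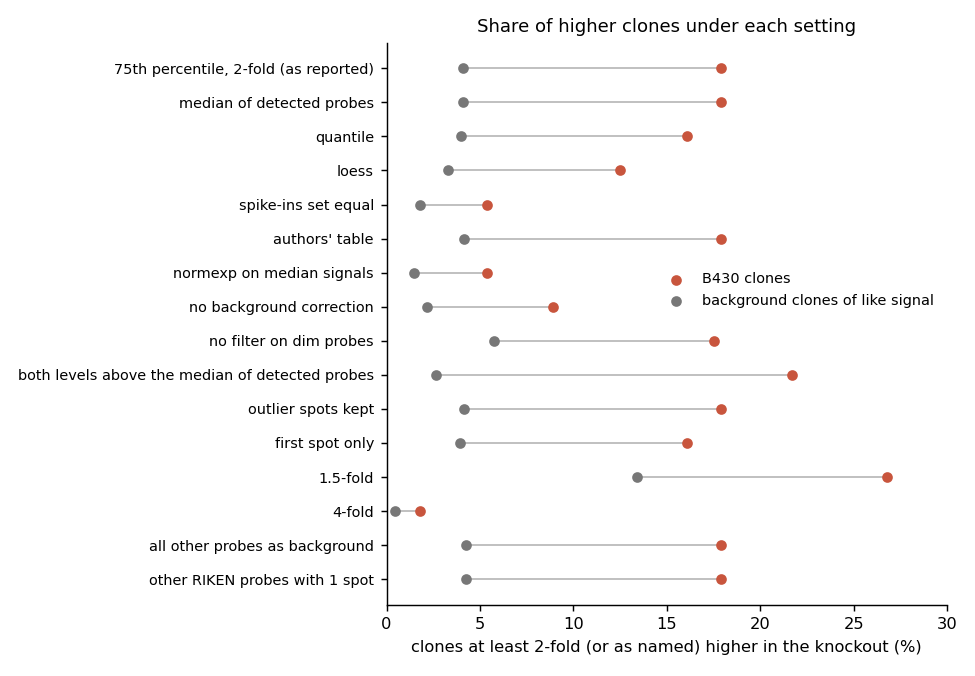
For each setting (rows), the red point is the percent of B430 clones higher in the knockout by at least 2-fold, or by the fold named, and the grey point is that of the background clones of like signal. The red point lies to the right of the grey point in each of the settings drawn, from 1.79% against 0.453% at 4-fold to 26.8% against 13.4% at 1.5-fold.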

How the data were processed

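Total RNA was labelled with Cy3 and hybridised to 1 array per genotype, per the labels' protocols. The intensity values deposited are output of Agilent Feature Extraction (11.5.1.1 per the file headers, 10.7 per the submitters' processing notes), background-subtracted and detrended within each array. The log2 values of the authors' deposited table equal log2 processed signal minus 8.40 (control) or 7.95 (knockout), in 100% of 97373 probes, within 0.0001, with column medians of -1.94 and -1.95. Differences are knockout minus control.

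Outlier-marked spots were left out, log2 signals of a probe's spots averaged, and each array's 75th percentile (8.36 and 7.92) subtracted. A probe was measured when all usable spots were well above background. A difference of 2-fold was called by size. Names came from a RefSeq table (GRCm38.p6), through which 5 B430 clones and 1248 other RIKEN clones matched 1 gene. Neonatal skin and aorta and vein clones were chosen by the library code in their names, whose tissue is general knowledge and not in the files. Clones named are those with a gene, those 2-fold apart, those just short of it, those seen on 1 array or neither and the 6 brightest, a wider choice than first fixed, made after values were seen. The values of 1 B430 clone are not reported here, though it is counted. Members and lists were chosen with earlier results of these data known. Alternatives were other scalings, background corrections, filters, folds and bins. Calls and weighting were run on simulated data with less noise and, for the weighting, more members and bins than here. That checks the code, not these results. Normexp (on median signals, offset 50) used limma 3.58.1 (R 4.3.3), loess statsmodels 0.14.6, and intervals scipy 1.17.1 under python 3.11.15.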

Additional observations from a re-analysis of the deposited data

How the results depend on the processing

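With spike-ins set equal the B430 median was -0.24, with 3 clones higher (5.36%, against 1.77% of like signal) and 8 lower (14.3%, against 11.3%). Normexp left 3 higher (5.36%, against 1.47%) and 0 lower (against 1.55%). No background correction left 5 (8.93%, against 2.16%) and 1 (1.79%, against 1.94%). With no filter on dim probes 11 were higher (17.5%, against 5.73%) and 4 lower (6.35%, against 6.46%). With both levels above the median of detected probes 5 of 23 were higher (21.7%, against 2.66%) and 1 lower (4.35%, against 2.47%). At 1.5-fold 15 were higher (26.8%, against 13.4%) and 8 lower (14.3%, against 12.8%). At 4-fold 1 was higher (1.79%, against 0.453%) and 0 lower (against 0.73%). Among clones matched to a gene, 5 of them B430, the offset from like signal was 0.47. In the other settings that offset ran from 0.01 to 0.13, the offset from aorta and vein clones ran from -0.05 to 0.11, and in all settings that gave one the share of higher clones stayed above that of like signal. With the softer flag for positive and significant signal 98.4% of B430 clones were detected on each array. Median levels were 7.02 and 6.57 unscaled, and -1.12 and -1.13 with no background correction. Settings for 1-spot clones, library size and named clones were chosen after seeing the data. No paired analysis was possible because each genotype had 1 array, which also limits the precision of every value.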
